A study of Mus musculus with 6 samples.

Results

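Traces of other marrow lineages were measured in RNA from mouse bone marrow neutrophils through 42 marker genes, picked by their symbols among the 52636 genes of the deposited expression table. The markers were 9 genes of erythroid cells, 8 of B cells, 6 of T and NK cells, 5 of eosinophils, 4 of basophils and mast cells, 6 of monocytes and macrophages, and 4 of plasmacytoid dendritic cells and progenitors. All 42 were found in the table. Their choice used textbook knowledge of which cells express them and no measured value, although results of these data were known when the list was drawn up.

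The libraries came from primary neutrophils of C57BL/6N mice aged 10 weeks, flushed from tibia and femur and enriched on a discontinuous Percoll density gradient. A first group of 3 libraries was labelled WT, and a second group of 3 carried the genotype LRP5f/f/Lyz2Cre+ and was labelled LRP5-KO. In the second group the Lrp5 alleles were floxed, and the Cre recombinase was driven by Lyz2, the lysozyme gene, which is active in neutrophils and also in monocytes and macrophages, so that these other myeloid cells were targeted as well. The label does not say whether the WT mice carried Cre or floxed alleles. The study's methods describe lysis of red blood cells before the gradient. For sequencing they name cells sorted as positive for both CD11b and Ly6G, a step that the labels do not mention. Nothing in the labels says that each library was a different mouse, so the p-values below measure the spread between these libraries.

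Blood cells are made in the marrow from shared progenitors, and each lineage turns on a small set of genes that the others keep low. Red cell precursors fill with globin mRNA, B cells assemble the antigen receptor with its CD79 signalling chains, T cells carry the CD3 complex, and eosinophils pack their granules with major basic protein and a peroxidase. Macrophages of the marrow express the receptor for colony-stimulating factor 1 and make complement C1q. A density gradient separates cells by buoyancy and not by identity, so transcripts of these genes are commonly read as a measure of how pure a neutrophil preparation was.

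Expression was given as TPM, a measure of transcript abundance per length of gene that is scaled to the same total in each library. The read total per library ran from 249841492 to 340580330, but TPM keeps no counts, so the counting error of a low value is unknown. The neutrophil identity of the libraries was plain: S100a9, a calcium-binding protein that fills the neutrophil cytosol, stood at 195191 to 230639 TPM, and Ly6g, the surface marker of mouse neutrophils, at 920 to 1104 TPM. Lrp5 itself was 1.12, 1.31 and 1.42 TPM in WT replicates 1 to 3 and 1.68, 1.77 and 2.07 TPM in LRP5-KO replicates 1 to 3. It was thus not lower in the libraries labelled LRP5-KO (p = 0.1 in a two-sided exact permutation test, and 3 against 3 libraries can give no smaller p), and every direction below rests on the labels. Lyz2, the gene that carries the Cre in the second group, was 24797 to 26791 TPM in the libraries labelled WT and 13360 to 14027 TPM in those labelled LRP5-KO (log2 fold change -0.91, adjusted p = 0.00351 from limma). Reads from ribosomal RNA made up 1.2% and 1.3% of WT replicates 1 and 2 but 3.3% of WT replicate 3 and 2.69% to 2.98% of the libraries labelled LRP5-KO.

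All 42 markers summed to between 139 and 164 TPM per library, which is 0.0139% to 0.0164% of the transcripts. The 4 adult globins and Csf1r supplied 52.9% to 59.6% of this sum. Of the 42 markers 22 stayed below 1 TPM in each of the 6 libraries, and the median of the markers' mean levels was 0.698 TPM. The traces were thus spread unevenly, with the highest levels for Csf1r and Hbb-bs. A few TPM were listed for B cell genes and Kit, and fractions of 1 TPM for most T cell, NK cell and mast cell genes.

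**Figure D1:**
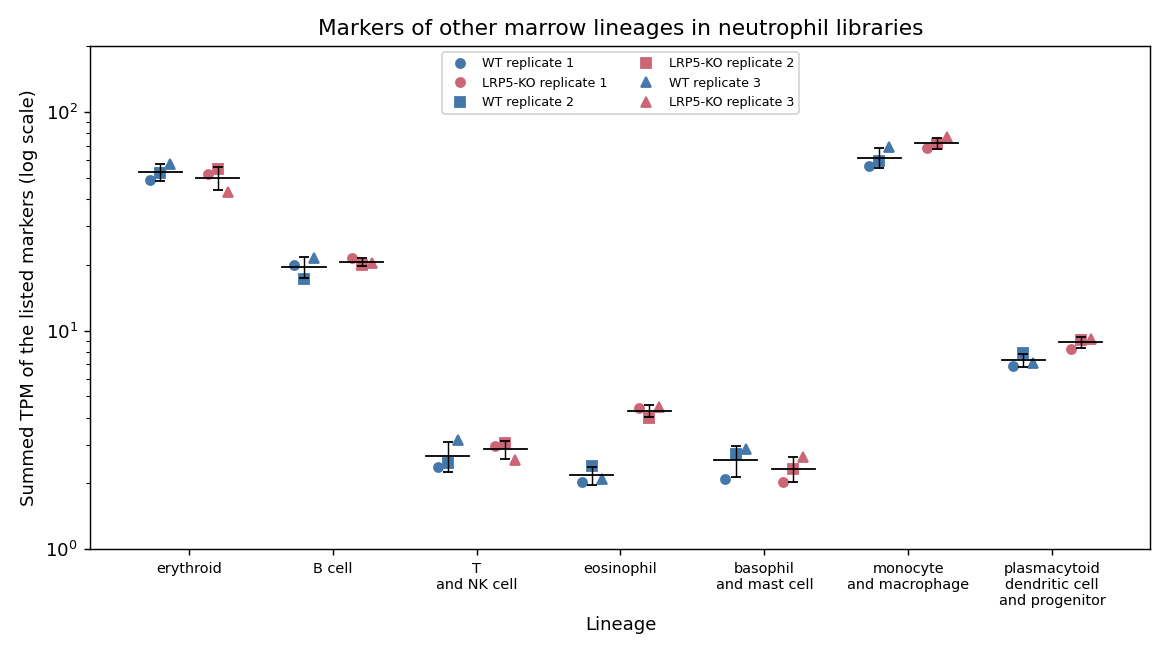
Summed TPM of the listed markers of each lineage (log axis) in the 3 WT libraries (blue) and the 3 LRP5-KO libraries (red). Circles, squares and triangles are replicates 1, 2 and 3, the horizontal line is the mean and the bar 1 SD. The monocyte and macrophage markers and the erythroid markers stand highest, and the eosinophil markers are above 3.9 TPM in each LRP5-KO library and below 2.5 TPM in each WT library.

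The erythroid trace consisted almost wholly of globin. Hba-a1 and Hba-a2 encode the alpha chain of adult hemoglobin and lie on chromosome 11 of NCBIM37 (mm9) at 32183511 to 32184465 and 32196489 to 32197301, both on the plus strand. Hbb-bs and Hbb-bt encode the beta chain and lie on chromosome 7 at 110975048 to 110976610 and 110961038 to 110962510, both on the minus strand. Within each pair the coding sequences are nearly the same, which bears on how reads can be divided between them. Over 429 coding bases Hba-a1 differs from Hba-a2 by 1 substitution, C381T, and over 444 coding bases Hbb-bs differs from Hbb-bt by 1 substitution, C417T, where positions are counted from 1 at the first base of the start codon and the base of the gene named first comes first. The stretches below, each 94 bases long like the reads, run from coding position 334 to 427 of the alpha genes and from 351 to 444 of the beta genes, with the differing base in capitals.
Hba-a1: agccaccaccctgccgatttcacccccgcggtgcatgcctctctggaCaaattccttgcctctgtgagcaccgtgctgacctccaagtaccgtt
Hba-a2: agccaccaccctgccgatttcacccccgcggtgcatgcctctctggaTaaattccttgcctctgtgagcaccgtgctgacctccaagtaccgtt
Hbb-bs: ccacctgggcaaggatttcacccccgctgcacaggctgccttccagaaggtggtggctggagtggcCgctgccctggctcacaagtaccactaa
Hbb-bt: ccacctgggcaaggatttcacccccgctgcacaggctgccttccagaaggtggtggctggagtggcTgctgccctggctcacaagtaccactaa

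A read that covers neither the substitution nor the untranslated ends cannot be assigned to 1 gene of a pair. Of all 94-base windows in the annotated transcripts, 57.9% for Hba-a1, 76.1% for Hba-a2, 49.2% for Hbb-bs and 55.2% for Hbb-bt also occurred in the transcripts of another gene. How such reads were divided is not given in the sources used here, so the split within a pair is uncertain and the pair's sum is the firmer quantity. Beyond the globins, 3 further markers shared windows with another gene, namely Alas2 (11.3%), Vpreb1 (15.3%) and Csf1r (16.9%), and the others shared none.

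Hbb-bs was the highest erythroid marker, at 33.6, 32.1 and 37.9 TPM in WT replicates 1 to 3 and 33.3, 36.2 and 27.6 TPM in LRP5-KO replicates 1 to 3. The groups overlapped, with LRP5-KO replicate 3 the lowest library (log2 fold change on log2(TPM + 1) -0.10, adjusted p = 0.635 from limma). Hba-a1 was 8.50, 9.10 and 10.3 TPM in the WT libraries and 7.39, 8.10 and 6.55 TPM in the LRP5-KO libraries. Each LRP5-KO library lay below each WT library, yet the difference did not pass the test over all 9775 genes (log2 fold change -0.31, standard error 0.10, adjusted p = 0.155 from limma). Its near copy Hba-a2 was 2.62, 4.52 and 3.31 TPM in WT and 3.95, 4.27 and 2.99 TPM in LRP5-KO, and Hbb-bt was 2.72, 5.14 and 4.76 TPM against 5.76, 4.46 and 4.24 TPM. Both overlapped between the groups (adjusted p = 0.769 and 0.596 from limma).

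**Figure D2:**
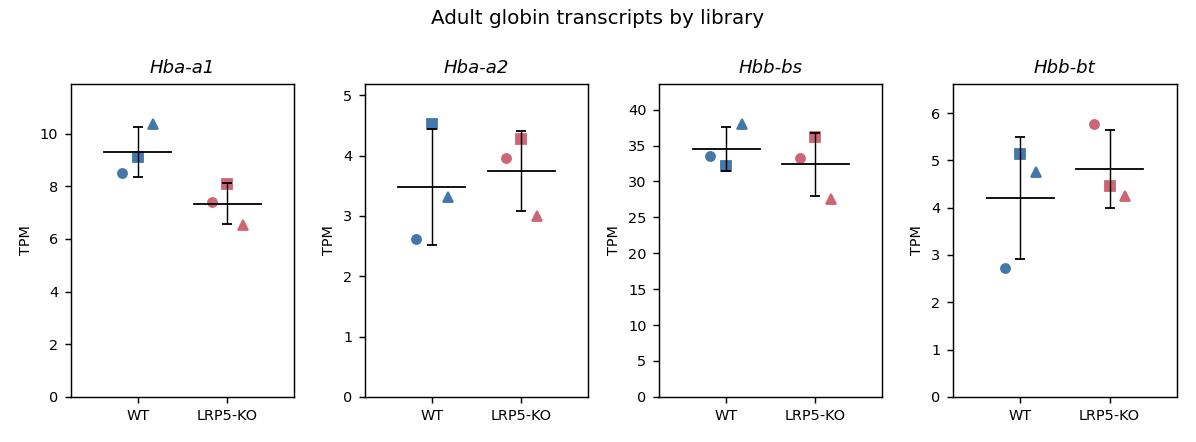
TPM of the 4 adult globin genes in WT (blue) and LRP5-KO (red) libraries, on linear axes from 0. Circles, squares and triangles are replicates 1, 2 and 3, the line is the mean and the bar 1 SD (n = 3). Hba-a1 has its highest LRP5-KO library at 8.10 TPM and its lowest WT library at 8.50 TPM, and the other 3 genes overlap between the groups.

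With each pair added up, the difference seen for Hba-a1 was no longer free of overlap. The alpha pair came to 12.8 ± 1.46 TPM (SD, n = 3) in WT and 11.1 ± 1.43 TPM (SD, n = 3) in LRP5-KO, and the beta pair to 38.7 ± 3.46 TPM (SD, n = 3) and 37.2 ± 4.69 TPM (SD, n = 3). The 4 globins together ranged from 41.4 TPM in LRP5-KO replicate 3 to 56.3 TPM in WT replicate 3. Beta exceeded alpha in each library, by 2.73 to 3.44 times.

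The other erythroid markers stayed below 1 TPM in each library. Alas2, the first enzyme of heme synthesis in red cells, was 0.431 to 0.649 TPM, and Hbb-bs exceeded it by 49.4 to 77.9 times. Car2, a carbonic anhydrase that is not confined to red cells, was 0.620 to 0.777 TPM in WT and 0.840 to 0.853 TPM in LRP5-KO. Slc4a1, the anion exchanger of the red cell membrane, stood at 0.137, 0.0887 and 0.0799 TPM in WT and at 0.267, 0.175 and 0.164 TPM in LRP5-KO. Klf1, the transcription factor that drives the adult beta-globin gene, was listed at 0 in WT replicate 3 and at no more than 0.0669 TPM elsewhere, and Epor, the erythropoietin receptor, reached 0.130 TPM at most. Car2, Slc4a1 and Klf1 were higher in each LRP5-KO library than in each WT library, but none of these 5 genes reached the mean of 1 TPM that the test required. Of the 6599 genes at such levels, 15.6% were higher and 3.73% lower without overlap, so the low range as a whole leaned towards LRP5-KO. In the fit without that filter, their adjusted p-values from limma ran from 0.266 for Slc4a1 to 0.993 for Alas2. The sum of the 9 erythroid markers was 52.9 ± 4.58 TPM (SD, n = 3) in WT and 50.0 ± 6.13 TPM (SD, n = 3) in LRP5-KO.

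Promoter sequences are shown for the beta-globin pair because its members lie on the same chromosome with nearly the same coding sequence and were listed at different levels, although that split is uncertain for the reason given above. Each run holds the 120 bases before the RefSeq start on GRCm38.p6, read on the minus strand, at chr7:103827929-103828048 for Hbb-bs and chr7:103813924-103814043 for Hbb-bt. Capitals mark matches, on either strand, to CCAAT or to CCACACCC, the latter being the CACCC box that KLF1 is known to bind in the adult beta-globin promoter.
Hbb-bs: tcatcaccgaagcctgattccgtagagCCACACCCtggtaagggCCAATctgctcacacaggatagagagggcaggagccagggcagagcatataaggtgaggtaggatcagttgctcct
Hbb-bt: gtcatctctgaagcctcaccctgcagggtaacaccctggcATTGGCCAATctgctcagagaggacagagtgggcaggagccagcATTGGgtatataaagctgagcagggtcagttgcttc

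Both promoters hold the CCAAT box, which occurs within 250 bases before the start in 33.8% of 32851 mouse promoters. Only the Hbb-bs window of the pair holds CCACACCC, which occurs in 3.20% of all promoters. Neither motif contains the other, and a match describes the sequence and shows no binding in these cells. Of the 42 markers 31 had an entry in this promoter table. Of the 7 erythroid markers with an entry, 5 held the CCAAT box and 1 held the CACCC box. The GATA motif, searched as AGATAA and found in 9.99% of all promoters, was held by 3 of the 7, among them Hbb-bs. It was not particular to the erythroid markers. It was held by 2 of 4 eosinophil, 2 of 4 basophil and mast cell, and 1 of 4 T and NK cell markers. The remaining groups held none. The CACCC box was also held by 1 eosinophil marker and 1 plasmacytoid dendritic cell or progenitor marker.

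Among the B cell markers, the chains of the antigen receptor complex were present at a few TPM and did not separate the groups. Cd79a was 3.44, 4.17 and 4.46 TPM in WT and 3.37, 3.34 and 3.51 TPM in LRP5-KO, and Cd79b was 3.97, 4.10 and 5.09 TPM against 5.43, 4.47 and 4.33 TPM. The groups overlapped for both chains (log2 fold changes -0.18 and 0.09, adjusted p = 0.292 and 0.646 from limma). Ms4a1, which encodes the surface protein CD20 of mature B cells, was 1.34 to 1.87 TPM in WT and 1.27 to 1.40 TPM in LRP5-KO (adjusted p = 0.302 from limma). Vpreb3, a chaperone of the receptor in immature B cells, was 0.992 to 1.67 TPM in WT and 1.44 to 1.54 TPM in LRP5-KO (adjusted p = 0.838 from limma). The transcription factors of the lineage, Pax5 and Ebf1, stayed between 0.227 and 0.805 TPM, as did the surrogate light chain Vpreb1 at 0.232 to 0.622 TPM, and none of these 3 separated the groups.

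Jchain, which joins the subunits of secreted IgM and IgA and is highest in plasma cells, was the most abundant marker of the B lineage. It was 7.97, 3.97 and 7.74 TPM in WT and 8.39, 8.04 and 8.39 TPM in LRP5-KO. WT replicate 2 was the lowest library, and the remaining WT libraries lay just under the LRP5-KO libraries, so the groups did not overlap although the difference was small against the WT spread (log2 fold change 0.34, adjusted p = 0.362 from limma). Of the 8 B cell markers 5 were tested and 0 passed (limma, with 0 also at an unadjusted p under 0.05). Of all genes tested, 0.266% passed in each direction, and 14.4% were higher and 9.12% lower at that unadjusted p. With 5 genes tested, counts of 0 are too few to read as an absence of change. The sum of the 8 B cell markers was 19.5 ± 2.21 TPM (SD, n = 3) in WT and 20.6 ± 0.766 TPM (SD, n = 3) in LRP5-KO.

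T and NK cell transcripts were the faintest of the lymphoid traces. Cd3e, an invariant chain of the T cell receptor complex, was 0.0727, 0.145 and 0.180 TPM in WT and 0.122, 0.0648 and 0.0171 TPM in LRP5-KO, and Trac, the constant segment of the receptor's alpha chain, was 0.0742 to 0.440 TPM over all libraries. Cd3g, a further CD3 chain, was higher at 0.507 to 0.910 TPM. Nkg7, a granule protein of NK cells and cytotoxic T cells, was the only marker of this group to be tested, at 0.776, 1.19 and 1.72 TPM in WT and 1.49, 1.91 and 1.37 TPM in LRP5-KO, with overlap (log2 fold change 0.23, adjusted p = 0.415 from limma). Gzma, which encodes granzyme A, was 0.275 to 0.358 TPM in WT and 0.107 to 0.243 TPM in LRP5-KO without overlap, and Klrd1, the NK receptor chain CD94, was 0.0328 to 0.0772 TPM against 0.0716 to 0.166 TPM with overlap. These NK cell genes thus lay in opposite directions at levels below 1 TPM, and neither was tested (adjusted p = 0.294 and 0.303 in the limma fit without a filter).

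Another CD3 chain behaved unlike these markers. Of 20 further T and NK cell genes, listed beside the markers, 19 stayed below 1 TPM in each library and only Cd3d was tested. It was 9.33, 10.6 and 10.4 TPM in WT and 14.5, 13.9 and 13.4 TPM in LRP5-KO, which is 57.9 to 783 times the level of Cd3e in the same library. Its groups did not overlap, and the difference did not pass the test (log2 fold change 0.43, adjusted p = 0.0651 from limma). Which cells carried the Cd3d transcript was not tested. Next in level were Ccl5, a chemokine of cytotoxic cells, at 0.443 to 0.877 TPM and Lck, the kinase of the T cell receptor, at 0.187 to 0.440 TPM, both with overlap.

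The eosinophil markers held the only difference among the 42 that passed the test. Prg2, which encodes major basic protein, the main constituent of the eosinophil granule core, was 0.850, 1.16 and 1.05 TPM in WT and 2.91, 2.33 and 3.13 TPM in LRP5-KO. The lowest LRP5-KO library thus lay at 2.33 TPM and the highest WT library at 1.16 TPM, and the ratio of the mean levels was 2.74. Prg2 rose by 0.91 on the log2(TPM + 1) scale (standard error 0.11, adjusted p = 0.0341 from limma) and was higher in 3 of 3 LRP5-KO libraries. The gene lies on chromosome 2 of NCBIM37 from 84820618 to 84823789 on the plus strand, and none of its 94-base windows occurred in another protein-coding gene. Of all genes tested, 0.266% were called higher and 0.266% lower, and Prg2 ranked 14 by p-value among the 9775.

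The call for Prg2 depended on the libraries and settings. It held in 9 of 17 alternative analyses, with log2 fold changes from 0.79 to 1.37 and adjusted p-values from 0.0123 to 0.178, all from limma. When single libraries were left out it was kept without WT replicate 3 (adjusted p = 0.0123 from limma) and without LRP5-KO replicate 2 (0.0396), and it was lost without WT replicate 1 (0.0778), WT replicate 2 (0.0820), LRP5-KO replicate 1 (0.178) or LRP5-KO replicate 3 (0.165). With the share of ribosomal RNA as a covariate the difference was 0.89 (adjusted p = 0.0843 from limma), and against WT replicate 3 alone, the WT library whose ribosomal share was like that of the LRP5-KO group, it was 0.88 (adjusted p = 0.155 from limma).

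Of the other 4 eosinophil markers, Ccr3 was near the WT level of Prg2 and 3 were lower, and 2 of the 4, both higher in LRP5-KO, had groups that did not overlap. Among the 6599 genes of the table that lay under 1 TPM on average but not under the lowest untested marker, 15.6% were higher and 3.73% lower without overlap. Epx, the eosinophil peroxidase, was listed at 0 in WT replicate 1 and was 0.0241 and 0.0344 TPM in WT replicates 2 and 3, against 0.141, 0.0675 and 0.116 TPM in LRP5-KO. Ccr3, the eotaxin receptor, was 0.970, 0.997 and 0.788 TPM in WT and 1.03, 1.17 and 0.997 TPM in LRP5-KO, so that WT replicate 2 and LRP5-KO replicate 3 were level to 3 digits. Prg3, a close relative of Prg2 that lies beside it, was 0.0598, 0.0682 and 0 TPM in WT and 0.145, 0.205 and 0.0660 TPM in LRP5-KO, with overlap. Il5ra, the receptor chain for interleukin 5 that eosinophils need to mature, was 0.150 to 0.219 TPM in WT and 0.157 to 0.198 TPM in LRP5-KO, with full overlap. None of these 4 reached a mean of 1 TPM, and in the fit without a filter Epx had an unadjusted p of 0.00602 and an adjusted p of 0.189 (limma).

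**Figure D3:**
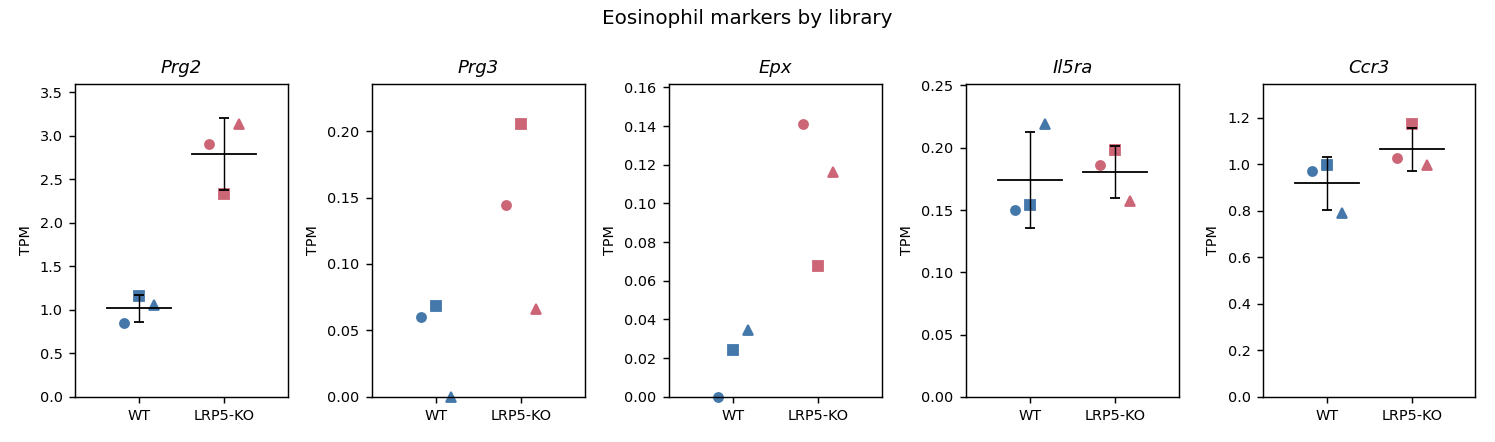
TPM of the 5 eosinophil markers in WT (blue) and LRP5-KO (red) libraries, on linear axes from 0 that differ between panels. Circles, squares and triangles are replicates 1, 2 and 3. The line is the mean and the bar 1 SD (n = 3), left out for Prg3 and Epx, which are listed at 0 in a WT library. Prg2 reaches 3.13 TPM and separates the groups, while Il5ra stays between 0.150 and 0.219 TPM in both.

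Summed over the 5 markers, the eosinophil trace was 2.17 ± 0.198 TPM (SD, n = 3) in WT and 4.28 ± 0.267 TPM (SD, n = 3) in LRP5-KO. Prg2 made up 41.9% to 50.3% of this sum in WT and 58.7% to 70.1% in LRP5-KO. Without Prg2 the sum was 1.18, 1.24 and 1.04 TPM in WT and 1.50, 1.64 and 1.34 TPM in LRP5-KO, still without overlap. In bulk libraries such as these, more cells of a type and more RNA per cell cannot be told apart. Of the genes near Prg2, Prg3 is given above, and Slc43a3 was 4.94 to 6.38 TPM in WT and 5.58 to 5.79 TPM in LRP5-KO (adjusted p = 0.846 from limma).

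Further eosinophil genes gave 1 separation of the groups and no call. Of 8 listed beside the markers 3 were tested and 0 were called by limma, with 1 at an unadjusted p under 0.05. At that unadjusted p, 14.4% of all genes tested were higher and 9.12% lower. Siglecf, a surface lectin of eosinophils, was 7.31, 8.72 and 8.77 TPM in WT and 8.04, 8.67 and 8.69 TPM in LRP5-KO, and Ear2, an eosinophil-associated ribonuclease, was 162, 150 and 136 TPM against 138, 144 and 145 TPM. Both overlapped fully (adjusted p = 0.848 and 0.615 from limma). Cebpe, a transcription factor that neutrophils and eosinophils share and that stood on the neutrophil list too, was 268, 317 and 305 TPM in WT and 357, 344 and 337 TPM in LRP5-KO, higher without overlap (log2 fold change 0.23, adjusted p = 0.159 from limma).

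The basophil and mast cell markers were low, and none was higher in each LRP5-KO library. Mcpt8, a basophil protease, was 1.25, 1.94 and 2.24 TPM in WT and 1.39, 1.75 and 1.94 TPM in LRP5-KO, with overlap (log2 fold change -0.05, adjusted p = 0.870 from limma). Ms4a2, the beta chain of the high-affinity IgE receptor, was 0.442, 0.316 and 0.357 TPM in WT and 0.201, 0.254 and 0.248 TPM in LRP5-KO. Its groups did not overlap, but it was below the level required for the test (adjusted p = 0.234 in the limma fit without a filter). Cpa3, carboxypeptidase A of mast cells and basophils, was 0.137 to 0.369 TPM, and Gata2, a transcription factor of progenitors and mast cells, was 0.0639 to 0.254 TPM, both with overlap. The sum of the 4 was 2.56 ± 0.410 TPM (SD, n = 3) in WT and 2.34 ± 0.312 TPM (SD, n = 3) in LRP5-KO. Among 10 further genes Hdc, the histamine-forming enzyme, stood far above the markers at 620, 661 and 791 TPM in WT and 567, 578 and 605 TPM in LRP5-KO, without overlap (log2 fold change -0.24, adjusted p = 0.195 from limma). Hgf, hepatocyte growth factor, was no higher than 23.5 TPM and Prss34, a basophil protease, 2.59 to 3.03 TPM over all libraries, both with overlap. Of the 10, 4 were tested and 0 were called by limma, and 2, both lower, had an unadjusted p under 0.05. At that unadjusted p, 9.12% of all genes tested were lower.

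Monocyte and macrophage markers gave the largest summed trace in each library, 56.8 to 69.0 TPM in WT and 68.0 to 76.3 TPM in LRP5-KO. Each of the 6 was tested, and for 4 of them each LRP5-KO library lay above each WT library, but 0 were called by limma, with 4, all higher, at an unadjusted p under 0.05. Of all genes tested, 17.4% were higher without overlap and 14.4% were higher at that unadjusted p. Csf1r, the receptor for colony-stimulating factor 1, was the highest at 31.4, 34.0 and 41.0 TPM in WT and 36.9, 39.0 and 42.5 TPM in LRP5-KO. WT replicate 3 lay within the LRP5-KO range (log2 fold change 0.16, adjusted p = 0.422 from limma). Which cells carried the Csf1r transcript was not tested.

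Adgre1, which encodes a surface protein used to recognise mouse macrophages, lies on chromosome 17 of NCBIM37 from 57498109 to 57622952 on the plus strand. It was 10.3, 11.2 and 12.6 TPM in WT and 14.4, 14.6 and 15.6 TPM in LRP5-KO, without overlap (log2 fold change 0.36, standard error 0.090, adjusted p = 0.103 from limma). C1qa, C1qb and C1qc encode the chains of complement C1q, a product of tissue macrophages, and lie side by side on the minus strand of chromosome 4, from 136451832 to 136454718, 136436044 to 136442102 and 136445719 to 136448980. The 3 chains showed 1 pattern, each with the LRP5-KO libraries above the WT libraries.

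C1qb was 2.49, 2.45 and 2.68 TPM in WT and 3.61, 3.73 and 4.13 TPM in LRP5-KO, the clearest gap of the 3 chains (log2 fold change 0.44, standard error 0.081, adjusted p = 0.0648 from limma). C1qa was 3.95, 3.53 and 3.52 TPM in WT and 4.25, 4.44 and 4.79 TPM in LRP5-KO (log2 fold change 0.24, adjusted p = 0.160 from limma). C1qc was 2.24, 2.52 and 3.18 TPM in WT and 3.43, 3.65 and 3.59 TPM in LRP5-KO (log2 fold change 0.33, adjusted p = 0.149 from limma). Here the gap narrowed to that between WT replicate 3 and LRP5-KO replicate 1. The chains' sum was 8.85 ± 0.469 TPM (SD, n = 3) in WT and 11.9 ± 0.609 TPM (SD, n = 3) in LRP5-KO, a ratio of 1.34. Vcam1, an adhesion molecule of marrow macrophages and stroma, was 6.40, 5.55 and 5.97 TPM in WT and 5.49, 5.81 and 5.73 TPM in LRP5-KO, with overlap (log2 fold change -0.06, adjusted p = 0.662 from limma).

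**Figure D4:**
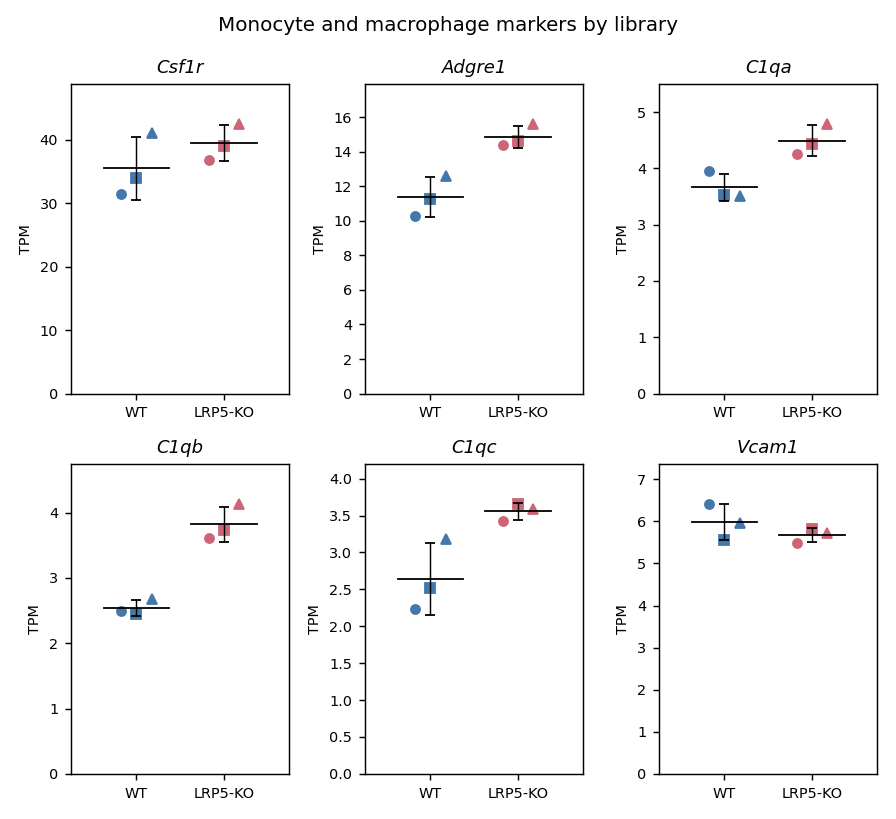
TPM of the 6 monocyte and macrophage markers in WT (blue) and LRP5-KO (red) libraries, on linear axes from 0 that differ between panels. Circles, squares and triangles are replicates 1, 2 and 3, the line is the mean and the bar 1 SD (n = 3). Adgre1, C1qa, C1qb and C1qc separate the groups without passing the test, and Csf1r and Vcam1 overlap.

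The promoter of C1qb is shown because it held the clearest gap of the C1q genes. It is the run of 120 bases before the RefSeq start on GRCm38.p6 at chr4:136886201-136886320, read on the minus strand, and the capitals mark AGGAAGT on the other strand, a core that ETS factors such as the macrophage factor PU.1 can bind.
C1qb: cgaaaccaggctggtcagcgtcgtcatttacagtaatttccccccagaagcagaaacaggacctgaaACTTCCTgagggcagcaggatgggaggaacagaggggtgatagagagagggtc

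Within 250 bases before the start, AGGAAGT was found for C1qb and C1qc, the 2 genes of this group in the promoter table, and in 7.69% of all promoters, and neither held the GATA motif, the CACCC box or the CCAAT box. AGGAAGT was not particular to this group, since 2 of 6 B cell and 1 of 4 T and NK cell markers with an entry also held it. Each match is a description of the sequence.

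Leaving out WT replicate 3 changed these calls. Without it Adgre1 (0.43, adjusted p = 0.0191), C1qb (0.47, adjusted p = 0.0195) and C1qc (0.43, adjusted p = 0.0209) passed beside Prg2, all on the log2 scale from limma. Calls were frequent in that fit, with 4 of 19 tested markers and 1920 of all 9775 genes called, a like share. With WT replicate 3 as the only WT library, the log2 differences were 0.22 for Adgre1, 0.39 for C1qb and 0.12 for C1qc. The adjusted p over all alternatives ran from 0.0191 to 0.308 for Adgre1, from 0.0195 to 0.258 for C1qb and from 0.0209 to 0.539 for C1qc. The share of ribosomal reads, given above, parts WT replicate 3 from the other WT libraries in the same way, and with it as a covariate the log2 differences were 0.40 for C1qb, 0.26 for Adgre1, 0.26 for C1qa, 0.19 for C1qc and 0.0018 for Csf1r, none of which passed (adjusted p from 0.127 for C1qb to 0.993 for Csf1r, limma).

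Further monocyte and macrophage genes did not share a direction among those tested. Of 20 listed beside the markers 11 were tested, 5 with a higher and 6 with a lower mean in LRP5-KO. Of these 0 were called by limma, with 2, both higher, at an unadjusted p under 0.05, beside 14.4% of all genes tested. The most abundant were Ly6c2, an antigen of inflammatory monocytes that other marrow cells also carry, at 513 to 664 TPM, Cd14, the coreceptor for endotoxin, at 231 to 296 TPM, and Slc40a1, the iron exporter, at 168 to 178 TPM, each with overlap (adjusted p = 0.952, 0.622 and 0.856 from limma). Of all 20 genes, 6 were higher and 1 lower without overlap. These shares were 17.4% and 12.3% of all genes tested, and 15.6% and 3.73% of the 6599 low genes. The higher ones were Axl and Lgmn (adjusted p = 0.189 and 0.195 from limma) and Siglec1, Mertk, Mrc1 and Cd5l, too low to be tested. The lower one was Cx3cr1, at 0.190 to 0.346 TPM over all libraries, also too low. Ccr2 was 0.863 to 1.21 TPM, with overlap. Itgax, the integrin chain CD11c of dendritic cells, was 7.17, 7.78 and 9.73 TPM in WT and 11.8, 12.8 and 13.1 TPM in LRP5-KO (log2 fold change 0.56, adjusted p = 0.0754 from limma), the largest difference among the named genes of the further lists, without overlap. Irf7, an interferon regulatory factor high in plasmacytoid dendritic cells, was 37.1 to 42.7 TPM, and Cd74, the invariant chain of class II antigen presentation, was 12.4 to 22.5 TPM, both with overlap (adjusted p = 0.996 and 0.790 from limma). Of the 12 dendritic cell genes 7 were tested and 0 were called by limma, with 1 higher and 1 lower at an unadjusted p under 0.05. The shares of all genes tested at that unadjusted p were 14.4% higher and 9.12% lower.

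Kit, the receptor for stem cell factor on progenitors and mast cells, was the main transcript of the last group. It was 5.86, 7.29 and 6.09 TPM in WT and 7.30, 8.21 and 7.97 TPM in LRP5-KO. The groups did not overlap, but WT replicate 2 and LRP5-KO replicate 1 were nearly level (log2 fold change 0.25, adjusted p = 0.181 from limma). The other markers of this group were lower, and Kit exceeded Cd34, a surface marker of progenitors, by 18.3 to 36.7 times. Cd34 was 0.199 to 0.365 TPM, Flt3, the cytokine receptor of early progenitors, was 0.0796 to 0.235 TPM, and Siglech, a lectin of plasmacytoid dendritic cells, was 0.341 to 0.646 TPM, each with overlap. Their sum with Kit was 7.31 ± 0.527 TPM (SD, n = 3) in WT and 8.82 ± 0.524 TPM (SD, n = 3) in LRP5-KO.

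Over all lineages 19 of the 42 markers were tested and 23 were too low. The tested markers had mean levels from 1.41 to 37.5 TPM, and 13 of them had a higher and 6 a lower mean in LRP5-KO on the log scale. Prg2 alone was called, beside 0.266% of all genes called higher. At an unadjusted p under 0.05, 6 markers were higher and 1 lower, where 14.4% of all genes tested were higher and 9.12% lower. Groups without overlap were seen for 7 higher markers (Prg2, C1qa, C1qb, C1qc, Adgre1, Kit and Jchain) and 1 lower (Hba-a1), where 17.4% of all genes tested lay without overlap in the higher direction and 12.3% in the lower. The median log2 fold change was 0.16 over the tested markers and 0.04 over all genes tested. The C1q genes are neighbours and the globins share reads, so the 19 markers are not separate measurements.

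**Figure D5:**
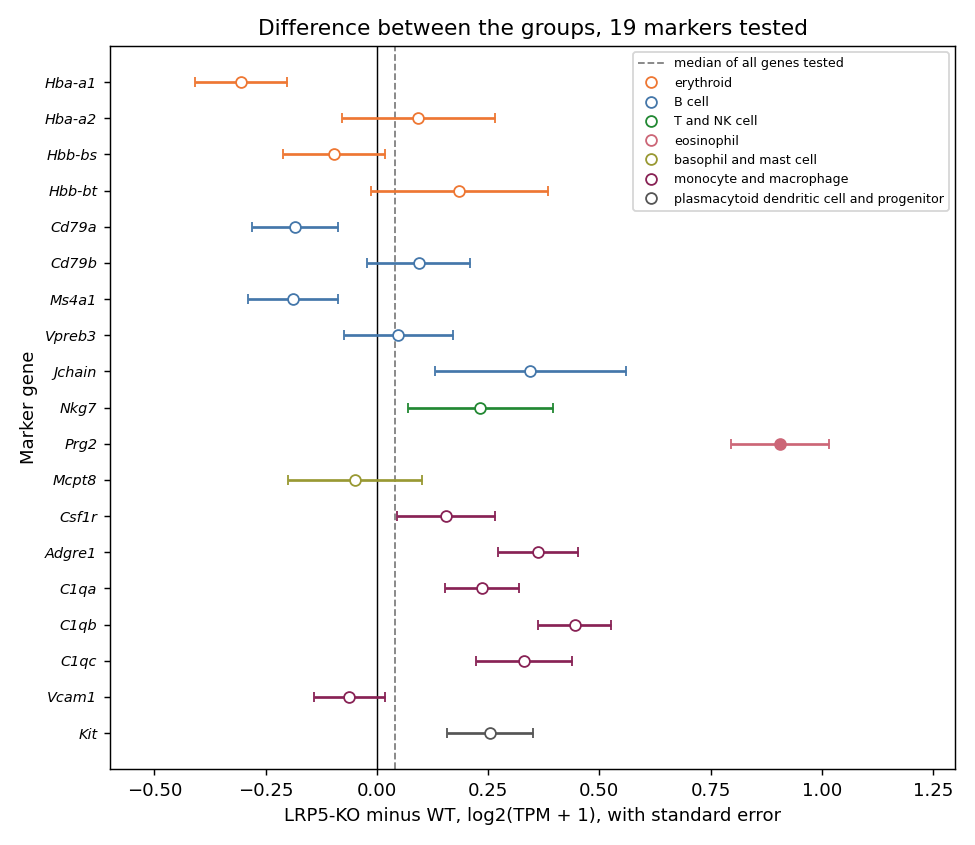
Difference between the group means of log2(TPM + 1), LRP5-KO minus WT, for the 19 markers tested, with the standard error from limma as the bar and the lineage as the colour. The filled point (Prg2, 0.91) passed the adjusted threshold of 0.05 and open points did not, and the dashed line is the median of all genes tested, 0.04.

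Of the 23 markers that were too low, no library listed a level above 1.17 TPM, and 5 were higher and 2 lower in LRP5-KO without overlap, beside 15.6% and 3.73% of the genes at such levels given above. In the fit without a filter 6 of them had an unadjusted p under 0.05, and their smallest adjusted p was 0.189 (limma). Whether these genes differed was not settled here. They lay below the level required for the test, and the counting error at such levels is unknown.

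Beyond the markers, 151 further genes of the same lineages, of dendritic cells, stem and progenitor cells, megakaryocytes, stroma and endothelium were looked up, and 92 of them stayed below 1 TPM in each library. Of the 54 that were tested 0 were called by limma, with 8 higher and 3 lower at an unadjusted p under 0.05, and their median log2 fold change was 0.0071. At that unadjusted p, 14.4% of all genes tested were higher and 9.12% lower, so these counts were near the share of all genes. For comparison, all 18 neutrophil genes listed were tested and 0 were called by limma, with 5 higher and 1 lower at an unadjusted p under 0.05, and S100a8, S100a9 and Ngp were the most abundant of them, at 106912 to 151287, 195191 to 230639 and 31331 to 38041 TPM. In the erythroid list the most abundant genes were Mkrn1, Bnip3l and Slc25a37, which other blood cells also express, at 136 to 161, 103 to 131 and 21.5 to 24.9 TPM, each with overlap. In the B cell list Cd37, a tetraspanin of leukocytes, was 89.6 to 118 TPM in WT and 106 to 142 TPM in LRP5-KO (adjusted p = 0.266 from limma). Ly6d, a surface antigen of B cell precursors, was 4.05 to 5.02 TPM over all libraries and Bank1, a B cell adaptor, 6.63 to 8.62 TPM, both with overlap.

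Among platelet genes Itgb3, the integrin beta chain of the fibrinogen receptor, was 23.2 to 27.9 TPM in WT and 29.4 to 31.3 TPM in LRP5-KO, without overlap (adjusted p = 0.150 from limma), while Gp9, a platelet glycoprotein, was 0.899 to 1.86 TPM in WT and 1.80 to 2.13 TPM in LRP5-KO (adjusted p = 0.187 from limma). F2rl2, a thrombin receptor, was 1.48 to 1.65 TPM against 1.14 to 1.39 TPM, in the other direction (adjusted p = 0.279 from limma). Myb, a transcription factor of progenitors, was 13.1 to 15.8 TPM, Cd93 was 6.31 to 7.46 TPM and Tal1, which acts in early blood cells, was 1.36 to 2.26 TPM, each with overlap. The stroma list was nearly silent. Cxcl12, the chemokine that holds neutrophils in the marrow, was 0.200 to 0.221 TPM in WT and 0.271 to 0.355 TPM in LRP5-KO, without overlap and too low to be tested. Col1a1 was 0.785 to 1.26 TPM, with overlap. Pecam1, which leukocytes share with endothelium, was 2.93 to 3.18 TPM in WT and 3.28 to 3.72 TPM in LRP5-KO, without overlap (adjusted p = 0.317 from limma).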

How the data were processed

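RNA of bone marrow neutrophils was sequenced in 6 libraries, 3 per group. The authors aligned reads to mm9 and name the DESeq2 pipeline for quantification; the tool that gave the values, its version and the annotation are not given in the sources used here. They deposited TPM per gene and library, scaled to 1000000 per library. They also deposited a read summary with read counts per library, shares in percent, coverage ratios, a coverage variation score and insert sizes. Of these the read totals, the read length and the ribosomal, intronic, coding and correct-strand shares are used. The labels name a Percoll gradient and an mRNA kit, whereas the methods name cell sorting, a stranded kit for total RNA and reads from 1 end. The read summary lists paired reads of 94 bases with 99.4% to 99.5% on the correct strand.

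TPM keeps no counts, so no count model was run. The 9775 genes whose mean over all 6 libraries was 1 TPM or more were compared on log2(TPM + 1), which understates changes of low genes, with limma 3.58.1 (R 4.3.3), a mean-variance trend, no covariate and Benjamini-Hochberg adjustment over all genes tested, with a threshold of 0.05. Standard deviations are over the 3 libraries of a group. The fit was tested on simulated data. The markers and lists were chosen with earlier results of these data known. Genes named are all markers, Lrp5, Lyz2 and, of each of 11 further lists (170 genes, 1 not analysed here), the 3 with the highest mean TPM and each gene called. Genes beside Prg2, S100a9 and Ly6g were named as checks. From the monocyte and macrophage list, the genes without overlap and Ccr2 were also named. For Itgam, with 2 rows, the row with the higher mean was used. Positions are from GENCODE M1 (NCBIM37), matched on gene identifiers, as were the 94-base windows, counted in protein-coding transcripts. Promoters are from RefSeq (GRCm38.p6), searched over 250 bases on both strands.

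Alternatives were a pseudocount of 0.1, filters of none and 5 TPM, median-ratio scaling, rescaling without globins or without the 20 most abundant and the mitochondrially encoded genes, limma with robust shrinkage or with no trend, leaving out each library, WT replicate 3 as the only WT library, the replicate number as a block and the ribosomal share as covariate. Removal of GC and length trends was added after the data had been seen.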

Additional observations from a re-analysis of the deposited data

Results flagged for a closer look

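Reads from introns made up 10.9% ± 0.305 (SD, n = 3) of reads in the libraries labelled LRP5-KO and 8.46% ± 0.622 (SD, n = 3) in those labelled WT. This value stands in the read summary, outside the expression table, and it was picked out because each LRP5-KO library was above each WT library, the one such case among 6 columns examined for higher values. Other columns parted the groups the other way: reads in coding sequence and untranslated ends made up 83.8% to 87.0% in WT and 81.9% to 82.4% in LRP5-KO, and reads on the correct strand 99.43% to 99.51% in WT and 99.37% to 99.41% in LRP5-KO. The part of these shares in the levels of Prg2, Adgre1 and the C1q genes was not tested.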

How the results depend on the processing

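The number of genes called (52 in the analysis reported) was 3 with no filter, 29 with a mean of at least 5 TPM, 77 with median-ratio scaling, 98 after rescaling without mitochondrially encoded and the most abundant genes, 6 with WT replicate 3 as the only WT library, 6 with the ribosomal share as covariate and 411 with GC and length trends removed, and it ran from 2 to 1920 when each library was left out, the highest without WT replicate 3. The split between higher and lower calls, 26 and 26 as reported, was 35 and 42 with median-ratio scaling, 71 and 27 with that rescaling and 154 and 257 with GC and length trends removed. Median-ratio scaling brought the median log2 fold change of all genes from 0.04 to 0.0031.

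The number of markers called (1 as reported) was 0 with no filter, with a mean of at least 5 TPM (Prg2 was not tested there) and with the ribosomal share as covariate. It was 2 after that rescaling (Prg2 and C1qb) and 3 with GC and length trends removed (Prg2, Adgre1 and Hba-a1). It ran from 0 to 4 when each library was left out, the highest without WT replicate 3, where 1920 of all 9775 genes were called. With GC and length trends removed, Hba-a1 stood at -0.48 (adjusted p = 0.0301 from limma; 0.0301 to 0.359 over its alternatives). Tested markers without overlap (8 as reported) were 15 of 42 with no filter, 4 with a mean of at least 5 TPM and 13 against WT replicate 3 alone.

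Whether the replicate numbers pair the samples was not settled by the values. Same-numbered libraries correlated at 0.229, -0.0075 and 0.131 in their deviations from the group means. WT replicates 1 and 3 were each closest to the LRP5-KO library of the same number. WT replicate 2 was closest to LRP5-KO replicate 3, at only 0.022. With the replicate number as a block, 4 genes and 0 markers were called, and Prg2 had an adjusted p of 0.109 (limma).

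The log2 ratio of summed TPM moved beyond the replicate spread only against WT replicate 3 alone, to -0.062 from 0.083 for B cells, -0.14 from 0.11 for T and NK cells and 0.058 from 0.22 for monocytes and macrophages. Single markers changed sign in 17 cases, all for genes that were not called. Leaving out each library gave a range from -0.050 (without WT replicate 1) to 0.25 for Hba-a2, -0.040 (without WT replicate 1) to 0.32 for Hbb-bt, -0.18 to 0.011 (without LRP5-KO replicate 3) for Hbb-bs, -0.084 (without WT replicate 1) to 0.13 for Vpreb3 and -0.20 to 0.063 (without WT replicate 3; 0.035 without LRP5-KO replicate 1) for Mcpt8. Against WT replicate 3 alone, Cd79b was -0.090, Vpreb3 -0.059, Nkg7 -0.075 and Csf1r -0.057. With the ribosomal share as covariate, Cd79b was -0.015 and Vpreb3 -0.032. With GC and length trends removed, Hba-a2 was -0.11, Cd79b -0.0012, Ms4a1 5.68e-05, Vpreb3 -0.069 and Vcam1 0.014. The causes were not tested. As the only WT library, WT replicate 3 is assumed to vary like the LRP5-KO libraries. With 3 libraries a group and no counts, low markers have no error beyond the spread between libraries.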
